A study of Mus musculus with 112 samples.

Results

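Crypt progenitors were compared with the stem cells they descend from in young mice. The comparison took every young library of the deposited count table whose column name marks the GFP-low gate, 10 progenitor libraries, and every one whose name marks the GFP-high gate, 11 intestinal stem cell (ISC) libraries, which makes 21 of 112 libraries. Both groups came from the proximal part of the small intestine of C57BL/6 mice, with no treatment recorded, that carried Lgr5-eGFP-IRES-CreERT2, a knock-in allele that places green fluorescent protein (GFP) and an inducible recombinase under the control of the stem cell gene Lgr5, and which is known to be active in only part of the crypts. Progenitors were sorted as GFP medium to low and ISCs as GFP high, and both gates also asked for high Epcam, low CD24 and exclusion of the dead cell dye 7-AAD. Progenitors came from 5 males and 5 females aged 2 months, except 1 male and 1 female of 3 months, and ISCs from 5 males and 6 females aged 2 months. Each library was a different animal of its group, 16 animals in all, of which 5 gave both cell types. RNA was measured by SC3-seq, which amplifies 1 ng of RNA and sequences the 3′ ends of transcripts.

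Stem cells at the crypt base carry Lgr5, a receptor for R-spondins that strengthens Wnt signalling, and are held in place by Wnt and Notch signals from neighbouring Paneth cells. Their daughters move up the crypt, divide several more times and choose a fate. Cells with active Notch become absorptive enterocytes, and cells that escape Notch and switch on the transcription factor Atoh1 become secretory goblet, enteroendocrine, tuft or Paneth cells. The GFP protein outlasts Lgr5 transcription, so cells with medium or low GFP are recent descendants of stem cells.

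The progenitor libraries held 2.78 to 5.72 M counts and the ISC libraries 2.79 to 5.59 M. The first principal component, 51.9% of the variance, separated the 10 progenitor libraries from the 11 ISC libraries. Libraries also stood apart within each cell type. Names of 6 ISC libraries end in a number and those of the other 5 do not, and these 5 are the animals that also gave progenitors. Progenitor libraries of these animals held 2.78 to 3.57 M counts and those of other animals 4.83 to 5.72 M, and ISC libraries 2.79 to 3.35 M and 3.84 to 5.59 M. On the second component, 8.34% of the variance, libraries of these 5 animals lay at -7.49 to 0.0669 in progenitors and at -19.5 to -6.17 in ISCs, those of other animals at 3.11 to 12.7 in progenitors and at -0.852 to 13.7 in ISCs. Between ISC libraries without and with the number, 388 of 9001 genes (4.31%) differed at an adjusted p below 0.05, with Rpl13, Gapdh, Eno1 and Rps6 at the smallest p, and 189 of the 205 that also differed between cell types did so toward the progenitor side. Lgr5 averaged 168 CPM in ISC libraries without the number and 164 CPM in those with it, and Muc2 127 CPM and 53.6 CPM. The labels used here do not say what the number stands for. Counts for most gene lists, and values of some genes, are therefore also given within the 5 animals that gave both cell types, in a fit with the animal as a block, called the within-animal value below. The share of counts from mitochondrially encoded genes was 4.42 ± 1.4% in progenitors and 6.27 ± 1.93% in ISCs (SD, n = 10 and 11). With these genes left out 2172 genes were higher and 2317 lower, against 2227 and 2272 with them, and none of 70 list counts moved by over 1.5 times.

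**Figure D1:**
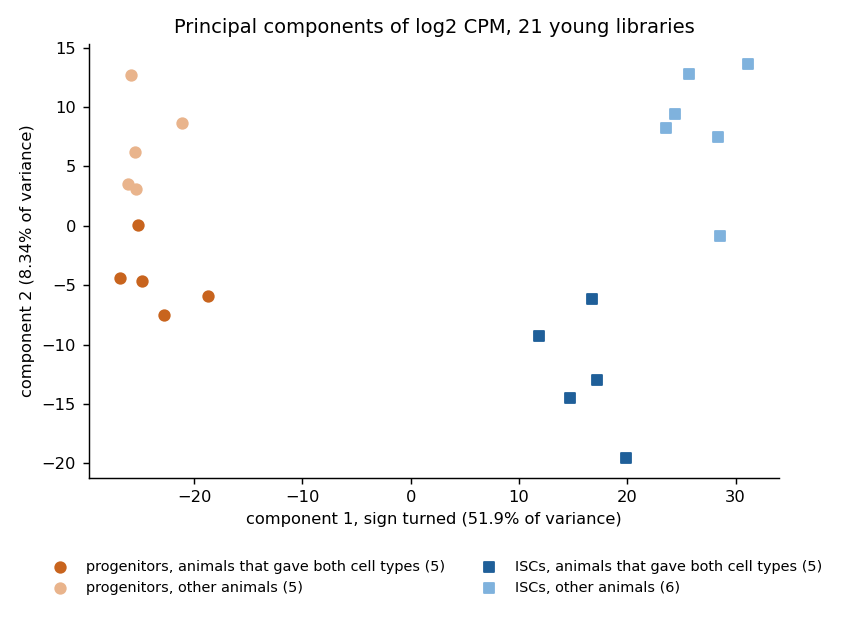
Principal components of log2 CPM, counts scaled to the same library total, for the 21 young libraries, component 1 on the horizontal axis with its sign turned and component 2 on the vertical axis, both in component scores. Circles are progenitors and squares ISCs, darker where the animal gave both cell types. The cell types separate on component 1, and on component 2 the darker symbols lie below the lighter ones of the same cell type.

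How far do young progenitors differ from young ISCs? Of 10924 genes tested 4499 (41.2%) were called at a Benjamini-Hochberg adjusted p below 0.05 in edgeR's quasi-likelihood test, 2227 (20.4%) higher and 2272 (20.8%) lower in progenitors. The median log2 fold change of all genes tested was -0.04. By more than 1 log2 unit, 793 of the called genes were higher and 771 lower. Groups did not overlap for 833 genes (7.63%). The lowest progenitor library stood above the highest ISC library for 574 genes (5.25%), and the highest progenitor library below the lowest ISC library for 259 genes (2.37%). Within the 5 animals 1565 of 10532 genes (14.9%) were higher and 1283 (12.2%) lower, and all 2618 genes called in both fits had the same sign. These 2618 genes are 58.2% of the calls over 21 libraries and 91.9% of the within-animal calls. Libraries of the 5 animals are among the 21, so the fits share data and their agreement is not independent. With library totals left unscaled the median of all genes shifted to -0.15, and 1740 genes were higher and 2886 lower, so directions of small differences are relative to the typical gene.

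The gene whose reporter set the gates followed them. Lgr5 (ENSMUSG00000020140, chromosome 10, 115450311 to 115587780 in GRCm38) had a lowest, median and highest value of 1.04, 6.32 and 18.1 CPM in progenitors, against 117, 177 and 199 CPM in ISCs. No progenitor library reached any ISC library. The log2 fold change was -4.52 ± 0.28 (edgeR adjusted p = 1.05e-11; within-animal value -4.23), and since GFP from this locus defined the groups it serves as a check of the sort and not as a finding. Olfm4 (ENSMUSG00000022026, chromosome 14, 79984081 to 80023139 in GRCm38), which encodes a secreted glycoprotein of stem cells and was not used in the gates, stood at 1179, 1664 and 2210 CPM in progenitors, against 8774, 12030 and 16080 CPM in ISCs. Again the groups did not overlap, with a log2 fold change of -2.86 ± 0.12 (edgeR adjusted p = 4.05e-20; within-animal value -2.83). Olfm4 transcripts were still found at over 1000 CPM in every progenitor library. Muc2 (ENSMUSG00000025515, chromosome 7, 141690340 to 141754693 in GRCm38), the gel-forming mucin of goblet cells, went the other way, at 1202, 2680 and 3670 CPM in progenitors, against 41.3, 80.3 and 193 CPM in ISCs. Its log2 fold change was 4.95 ± 0.33 over 21 libraries (edgeR adjusted p = 5.07e-10) and 4.13 within animals, whose ISC libraries are those without the number. In sorted bulk samples, more or fewer cells of a type and more or less RNA per cell cannot be told apart. Of the surface proteins of the gates, Epcam was higher in progenitors, with a log2 fold change of 0.54 ± 0.11, and Cd24a lower, with -0.35 ± 0.10 (edgeR adjusted p = 9.28e-05 and 0.00383), with overlapping groups for both.

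**Figure D2:**
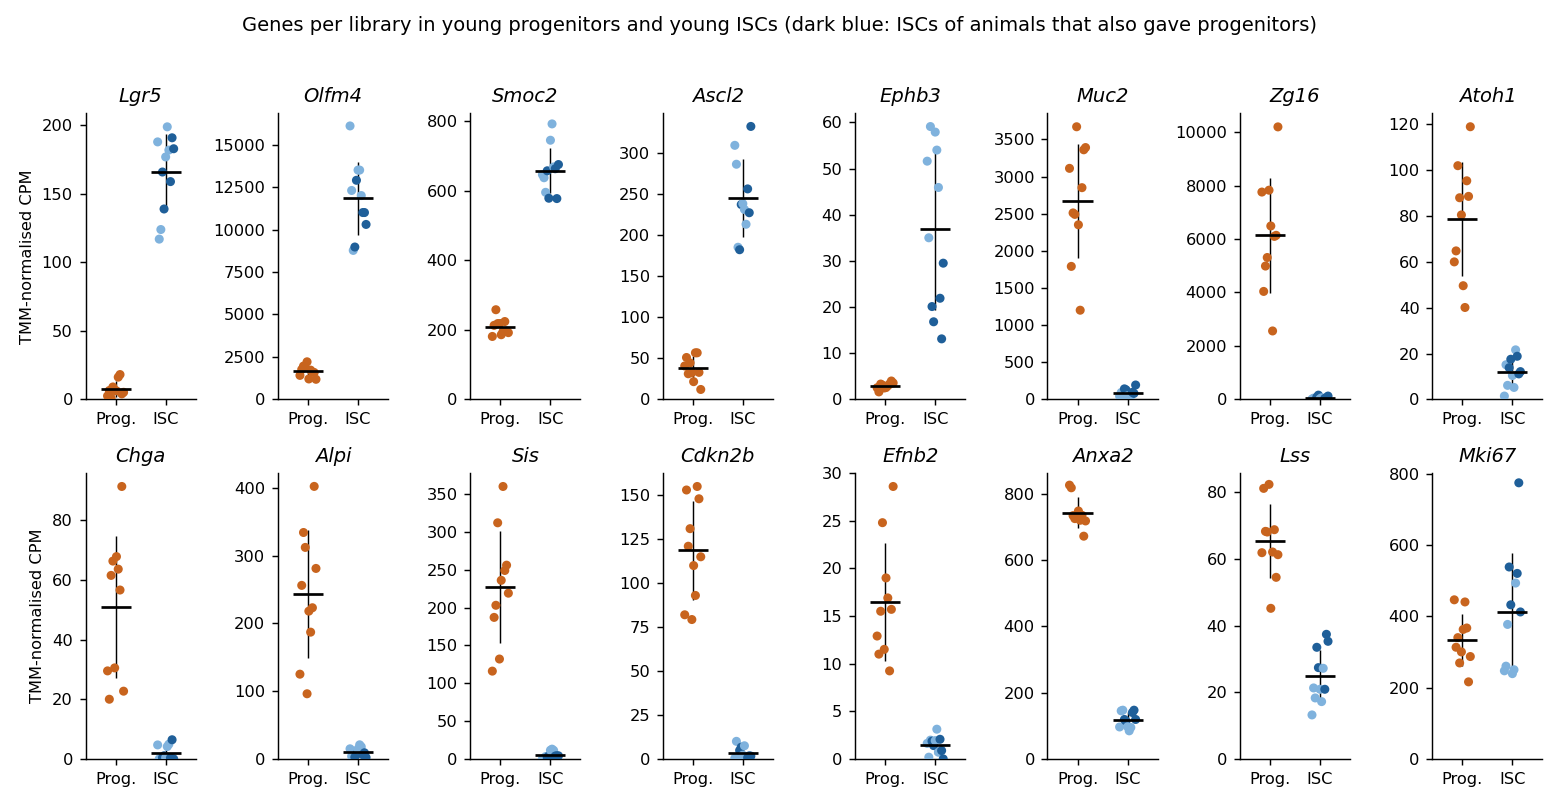
TMM-normalised CPM of 16 genes in each library, progenitors to the left of ISCs in every panel, on linear axes that start at 0. Each point is a library, horizontal bars are means and vertical bars SD (n = 10 and 11), and dark blue points are ISCs of animals that also gave progenitors. All groups separate except those of Mki67.

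Stem cell genes were lower nearly throughout. Of 31 stem cell markers tested 30 were lower and none higher in progenitors, at a median log2 fold change of -1.83, and 25 had groups that did not overlap. A list that holds Lgr5, whose reporter set the gates, counts it among its lower genes. Within animals 29 were lower at a median of -1.94. Among all genes lower ones are 20.8% over 21 libraries and 12.2% within animals. Smoc2, a secreted matrix protein of crypt base cells, stood at 181, 204 and 258 CPM in progenitors, against 578, 658 and 793 CPM in ISCs (-1.66 ± 0.09, edgeR adjusted p = 6.82e-17). Gkn3, a gastrokine that marks stem cells of the proximal intestine in mice, had 6.93, 15 and 29.6 CPM in progenitors, against 163, 221 and 377 CPM in ISCs (-3.74 ± 0.20, edgeR adjusted p = 9.35e-15). The groups were apart for both, Gkn3 by more. Rgmb, a co-receptor for bone morphogenetic proteins (log2 -2.77 ± 0.15), Igfbp4, a secreted binding protein of insulin-like growth factors (-2.63 ± 0.14), Cdca7 (-1.91 ± 0.11) and the urea transporter Slc14a1 (-2.73 ± 0.20) were lower too, all without overlap (highest edgeR adjusted p = 5.44e-13). Tnfrsf19, a receptor known as Troy, and the cytochrome Cyp2e1 were among the genes that fell furthest, with log2 fold changes of -4.32 ± 0.42 and -3.67 ± 0.37. Bmi1, once proposed as a marker of slow-cycling stem cells, was the listed gene that did not pass and is named for that after its value was seen (-0.26 ± 0.23, edgeR adjusted p = 0.388).

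Targets of Wnt signalling were lower in most cases tested, its receptors and inhibitors in some. Of 15 Wnt targets tested 12 were lower and 1 higher (median -1.84, 11 without overlap), and 11 were lower and 1 higher within animals. Ascl2, the transcription factor that maintains stem cell identity, stood at 12, 36.7 and 56.6 CPM in progenitors, against 182.3, 237 and 332 CPM in ISCs (-2.71 ± 0.21, edgeR adjusted p = 1.69e-10). Axin2, which limits beta-catenin and is switched on by it, had 17.1, 21.1 and 39.8 CPM in progenitors, against 63.4, 127 and 192 CPM in ISCs (-2.36 ± 0.21, edgeR adjusted p = 2.57e-10). No library of either gate crossed into the range of the other for these genes. Sp5, Sox9, Cd44 and Tcf7, all known targets of the pathway, had log2 fold changes of -2.39 ± 0.24, -1.80 ± 0.17, -1.84 ± 0.18 and -1.93 ± 0.23, and their groups did not overlap. Among 17 receptors, agonists and inhibitors of the pathway 7 were lower and 1 higher (6 and 1 within animals), and 2 were higher without ISC male 3 or without ISC female 6. Lgr5, whose reporter set the gates, was 1 of the 7 lower. The ubiquitin ligase Rnf43, which removes Frizzled receptors, had a log2 fold change of -2.37 ± 0.17 and the secreted inhibitor Sfrp5 of -3.11 ± 0.22. The Frizzled receptors went different ways, with Fzd2 and Fzd7 lower (-2.44 ± 0.30 and -2.20 ± 0.21) and Fzd5 higher (1.09 ± 0.14, edgeR adjusted p = 7.91e-08). Fzd5 stood at 74.1, 97.8 and 143 CPM in progenitors, against 28.9, 47.7 and 63.4 CPM in ISCs, without overlap, and its within-animal value was 0.78. Calls of Wls, which carries Wnt ligands to the surface, and of the ligase Znrf3 ended within animals (edgeR adjusted p = 0.301 and 0.248).

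Eph receptors and their membrane-bound ephrin ligands, which repel each other and sort crypt cells by position, were lower in 6 and higher in 2 of 10 cases tested, and in 5 and 1 within animals. The lower ones were the B class receptors Ephb2, Ephb3 and Ephb4, the A class receptor Epha4 and the A class ephrins Efna3 and Efna4. Both higher ones were ephrins of the B class. The receptor Ephb3 had 1.61, 3.01 and 3.97 CPM in progenitors, against 13.1, 35 and 59.1 CPM in ISCs (-3.63 ± 0.29, edgeR adjusted p = 1.49e-12; within-animal value -2.95). The ligand Efnb2 had 9.24, 15.6 and 28.6 CPM in progenitors, against 0, 1.63 and 3.12 CPM in ISCs (3.50 ± 0.39, edgeR adjusted p = 4.34e-09; within-animal value 3.54). Neither gene's groups overlapped, with the receptor low and the ligand high in every progenitor library. Ephb2 and Ephb4 were lower by smaller amounts (-0.70 ± 0.11 and -1.05 ± 0.14), and Efnb1 was higher (0.92 ± 0.24), a call that ended within animals (edgeR adjusted p = 0.0638).

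Of 23 Notch pathway genes tested 4 were higher and 4 lower, and 2 and 4 within animals. For these and the lists below, the shares among all genes were 20.4% higher and 20.8% lower, and 14.9% and 12.2% within animals. The receptor Notch1 was lower at 10.5, 15.4 and 22.1 CPM in progenitors, against 46.6, 59.7 and 100.1 CPM in ISCs, without overlap (-1.97 ± 0.17, edgeR adjusted p = 1.06e-11). Its target Hes1, a repressor of secretory fate, had 9.93, 17.4 and 34.1 CPM in progenitors, against 21.6, 28.8 and 52.2 CPM in ISCs (-0.83 ± 0.22, edgeR adjusted p = 0.00258). Those ranges overlapped. Atoh1, the factor that commits cells to the secretory lineage and that Hes1 represses, had 40.1, 84.3 and 119 CPM in progenitors, against 1.43, 12.1 and 21.6 CPM in ISCs. Every progenitor library lay above every ISC library, with a log2 fold change of 2.74 ± 0.30 (edgeR adjusted p = 8.62e-08; within-animal value 2.03). The ligands Dll1 and Dll4, picked after their values were seen, did not pass (0.38 ± 0.25 and 0.49 ± 0.33, edgeR adjusted p = 0.239 and 0.238). Bone morphogenetic protein (BMP) genes, part of a pathway that rises toward the villus, were higher in 3 and lower in 6 of 25 cases, and in 3 and 5 of 24 within animals. Without ISC male 4 the number higher was 5. Its target Id3 had 225, 276 and 345 CPM in progenitors, against 65.6, 148 and 217.2 CPM in ISCs (0.89 ± 0.14, edgeR adjusted p = 5.33e-06), without overlap. Id4 had 4.01, 5.68 and 11.4 CPM in progenitors, against 0, 0 and 3.26 CPM in ISCs (3.27 ± 0.60, edgeR adjusted p = 3.41e-05). Id1, another target, picked after its value was seen, did not pass (0.24 ± 0.12, edgeR adjusted p = 0.0976). The protease Bmp1, which processes procollagen, and the ligand Bmp7 were lower (-2.95 ± 0.42 and -0.92 ± 0.18). Of 18 ErbB and growth factor genes 7 were lower and none higher, and 4 within animals, among them Lrig1, a brake on ErbB receptors (-1.54 ± 0.15), Igf1r (-1.12 ± 0.24) and Fgfr4 (-2.57 ± 0.42).

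Goblet cell genes were higher almost throughout. Of 28 tested 27 were higher and none lower (median log2 fold change 4.19, 26 without overlap), and 27 were higher within animals at a median of 3.55. Foxa3, a forkhead factor named after its value was seen, did not pass (0.09 ± 0.31, edgeR adjusted p = 0.842). Zg16, a lectin that binds bacteria in mucus, had 2562, 6120 and 10210 CPM in progenitors, against 9.78, 44.2 and 157 CPM in ISCs (6.73 ± 0.50, edgeR adjusted p = 2.49e-09; within-animal value 5.89). Fcgbp, a mucus protein that joins Muc2 in the mucus layer, had 4378, 8800 and 11720 CPM in progenitors, against 146, 259 and 843 CPM in ISCs (4.49 ± 0.35, edgeR adjusted p = 3.94e-09; within-animal value 3.77). Each progenitor library was far above each ISC library, and ISC libraries spread several-fold among themselves. Tff3, the trefoil peptide of goblet cells, had 1863, 5948 and 9246 CPM in progenitors, against 131, 298 and 631 CPM in ISCs (4.08 ± 0.32, edgeR adjusted p = 5.64e-09). Clca1, a secreted metalloprotease of mucus, had 1508, 2674 and 4504 CPM in progenitors, against 20.1, 46.9 and 188 CPM in ISCs (5.45 ± 0.46, edgeR adjusted p = 1.31e-08). Agr2, the disulfide isomerase that mucin folding needs, had 2133, 4307 and 6604 CPM in progenitors, against 94.1, 188 and 512 CPM in ISCs (4.25 ± 0.33, edgeR adjusted p = 4.36e-09). The groups lay in the same order for each of these genes, and no ISC library reached the lowest progenitor library. Summed over Muc2, Tff3, Zg16, Clca1, Fcgbp and Agr2, the level was 13600, 30200 and 42300 CPM in progenitors, against 602, 899 and 2470 CPM in ISCs. It was 1140 to 2470 CPM in the 5 ISC libraries without the number and 602 to 899 CPM in the 6 with it. Other members that rose were Klk1 (2.91 ± 0.16), Ccl6 (4.62 ± 0.32), Rep15 (4.79 ± 0.39) and Bcas1 (5.19 ± 0.40).

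Among transcription factors of the secretory lineages, 3 tied to goblet cells were higher besides Atoh1. Spdef, which drives goblet cell maturation, had 48.9, 80.3 and 119.8 CPM in progenitors, against 1.25, 8.74 and 15.3 CPM in ISCs (3.47 ± 0.35, edgeR adjusted p = 3.2e-08). Creb3l1, a membrane-bound factor of secretory cells, had 80.5, 133 and 185 CPM in progenitors, against 4.69, 11.2 and 31.5 CPM in ISCs (3.27 ± 0.33, edgeR adjusted p = 8.22e-08). Gfi1, which acts downstream of Atoh1 and favours goblet and Paneth over enteroendocrine fate, had 7.72, 13.1 and 21.9 CPM in progenitors, against 0, 0.426 and 2.11 CPM in ISCs (4.31 ± 0.46, edgeR adjusted p = 2e-09). None of the 3 overlapped, and within animals they stood at 2.81, 2.66 and 3.53. Over 50 intestinal transcription factors 16 were higher and 15 lower, with Maf, known in enterocytes, higher at 14.1, 25.8 and 53.6 CPM in progenitors, against 0, 2.33 and 5.75 CPM in ISCs (3.53 ± 0.37, edgeR adjusted p = 1.47e-09) and the vitamin D receptor Vdr lower at 399, 492 and 614 CPM in progenitors, against 912, 939.8 and 1063 CPM in ISCs (-0.93 ± 0.09, edgeR adjusted p = 1.04e-10). The groups were apart for both. Within animals 15 of these transcription factors were higher and 12 lower of 51. Among all genes 20.4% were higher and 20.8% lower, and 14.9% and 12.2% within animals.

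Enteroendocrine hormones and granins were higher in 11 of 12 cases tested (median 4.03, none lower), and in 10 of 11 within animals. Chga, a granin of hormone granules, had 19.99, 59 and 91.3 CPM in progenitors, against 0, 0.426 and 6.42 CPM in ISCs (4.67 ± 0.57, edgeR adjusted p = 1.65e-06). Gip, the incretin of K cells, had 2.25, 12.1 and 55.8 CPM in progenitors, against 0, 0.343 and 3.5 CPM in ISCs (5.08 ± 0.70, edgeR adjusted p = 1.51e-06; within-animal value 3.85), and could be tested in 12 of the 21 fits that left out 1 library. Groups were apart for Chga and met for Gip. Secretin (Sct), tachykinin (Tac1) and cholecystokinin (Cck) were higher by 3.93 ± 0.50, 4.13 ± 0.61 and 4.20 ± 0.66 (highest edgeR adjusted p = 3.53e-05). A further 16 listed hormones and granins had too few counts to be tested. Of the lineage's transcription factors 6 were tested and 21 lay under the filter. Neurog3, the factor that starts the lineage, was higher at low levels, 2.36, 4.65 and 8.83 CPM in progenitors, against 0, 0.359 and 4.38 CPM in ISCs (2.38 ± 0.62, edgeR adjusted p = 0.00241). It had too few counts to be tested without ISC male 4, without ISC female 5 or within animals. Of the 4 lower ones, Sox4 (-1.67 ± 0.22), Foxa2 (-0.74 ± 0.19) and Foxa1 (-0.65 ± 0.22, -0.50 without ISC male 1, edgeR adjusted p = 0.0518) are also expressed outside this lineage. Within animals none was higher and 4 of 5 tested were lower. Tuft cell genes were barely present. Only 3 of 24 passed the filter, with 1 lower (Cd24a, above, whose protein was selected low in both gates) and none higher. Avil, an actin-binding protein of tuft cells, had 1.77, 4.97 and 17.6 CPM in progenitors, against 0, 0 and 19.3 CPM in ISCs and did not pass (1.54 ± 0.83, edgeR adjusted p = 0.147), but did without ISC male 4, the highest ISC library (3.02, edgeR adjusted p = 0.00312). The summed level of 7 tuft markers was 5.94, 16.4 and 33.3 CPM in progenitors, against 2.34, 5.82 and 24.6 CPM in ISCs, and Gfi1b was at 0 in every ISC library. Trpm5, the tuft cell cation channel, did not pass (0.18 ± 0.44, edgeR adjusted p = 0.781).

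Paneth cell genes were higher in part. Of 14 tested 8 were higher and 2 lower (median 0.80), and 11 of 13 were higher and 1 lower within animals (median 1.93). The 2 lower over 21 libraries were Fgfrl1 and the alpha-defensin Defa22. Their log2 fold changes were -2.55 to -2.16 and -2.31 to -1.48 over the fits that left out 1 library. Defa22 was low throughout, at 0 to 4.38 CPM in progenitors, against 1.03 to 23.2 CPM in ISCs. Mmp7, the protease that activates alpha-defensins, had 133, 187 and 377.6 CPM in progenitors, against 11.4, 27.9 and 51.5 CPM in ISCs (2.90 ± 0.29, edgeR adjusted p = 8.34e-08; within-animal value 2.30). The lysozyme gene Lyz1 had 294, 369 and 560.4 CPM in progenitors, against 101, 227 and 638 CPM in ISCs (0.72 ± 0.25, edgeR adjusted p = 0.0261; within-animal value 1.09). Mmp7 separated the groups and Lyz1 did not, its highest library being an ISC one. Without progenitor female 2 or 4 the call of Lyz1 ended (log2 0.65 and 0.66, edgeR adjusted p = 0.0527 and 0.0501). The alpha-defensin Defa17 had log2 fold changes of 0.51 ± 0.48 over 21 libraries and 2.49 within animals, of which only the second passed (edgeR adjusted p = 0.421 and 0.0042). Alpha-defensins form a multigene family whose reads may be split between copies. The summed level of 6 Paneth markers, 1250, 1570 and 2270 CPM in progenitors against 334, 557 and 1710 CPM in ISCs, was highest among ISCs in female 1, which gave ISCs alone, and the next ISC library, male 4, had 758 CPM. Of 16 antimicrobial and mucosal defence genes 12 were higher and 3 lower, alike within animals. Reg3g, a lectin that kills Gram-positive bacteria, had 739, 1406 and 2065 CPM in progenitors, against 79.2, 260.4 and 708 CPM in ISCs (2.07 ± 0.32, edgeR adjusted p = 3.15e-05), and Reg3a and Reg1 rose by 3.88 ± 0.38 and 3.65 ± 0.27, while the inflammasome sensor Nlrp6 was lower (-0.50 ± 0.09).

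**Figure D3:**
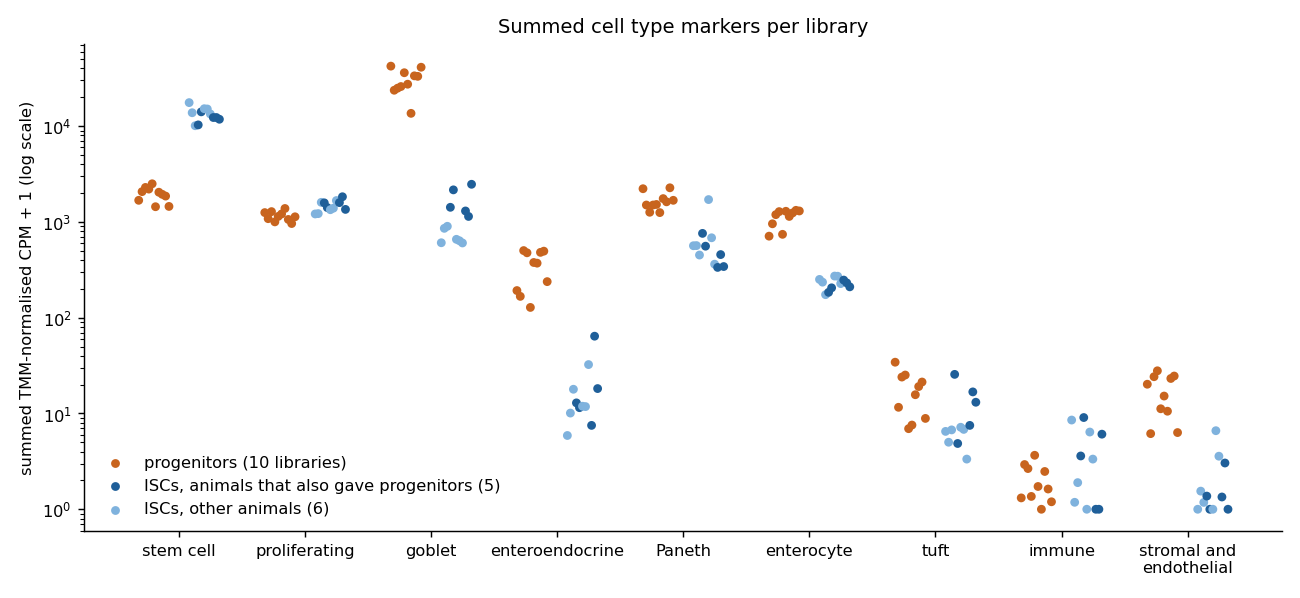
Summed TMM-normalised CPM of the marker genes of each cell type, plus 1, on a log axis. Each point is a library, progenitors to the left of ISCs, with ISCs of animals that also gave progenitors in dark blue. Goblet markers stand at 13600 to 42300 CPM in progenitors and 602 to 2470 CPM in ISCs, stem cell markers at 1440 to 2500 CPM and 10100 to 17600 CPM, and immune markers stay below 10 CPM in both. The stem cell sum includes Lgr5, whose reporter set the gates.

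Genes of protein folding in the endoplasmic reticulum (ER), which cells that secrete large amounts of protein raise through the unfolded protein response, were higher in 29 of 32 cases (median 1.12, none lower, 16 without overlap). Within animals 25 were higher at a median of 0.94. Xbp1, the transcription factor of this response, had 470.3, 659 and 764 CPM in progenitors, against 171, 284 and 319.6 CPM in ISCs (1.32 ± 0.11, edgeR adjusted p = 7.04e-12). Pdia5, a disulfide isomerase, had 90.8, 145 and 219 CPM in progenitors, against 18.2, 33.9 and 58.4 CPM in ISCs (2.12 ± 0.18, edgeR adjusted p = 4.35e-11). Dnajc3, a co-chaperone that dampens the kinase PERK, had 127.6, 163 and 219 CPM in progenitors, against 34.2, 47.6 and 75.4 CPM in ISCs (1.70 ± 0.14, edgeR adjusted p = 2.49e-12). All 3 separated the groups. Kdelr3, a receptor that returns escaped ER proteins, is not on the list and was picked after its value was seen (4.95 ± 0.49, edgeR adjusted p = 2.37e-08; within-animal value 4.12).

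Promoters of this list were searched for the ER stress element, the site bound by ATF6 with NF-Y, because its members moved together. The window was 250 bases before to 50 bases after the transcript start in RefSeq (GRCm38.p6), the motif CCAAT, then any 9 bases, then CCACG, on either strand, and 28 of the 33 listed genes had a window. It was found in 8 of the 28 (28.6%) and in 0.137% of 27025 genes with a window (0.119% of 32851 windows). Such shares, here and for the motifs below, come from sequence and list membership alone and use no expression value. The 8 are Hspa5, Hsp90b1, Calr, Canx, Pdia6, Dnajc3, Creld2 and Syvn1, of which all but Syvn1 were called higher in progenitors, and Syvn1 within animals (0.28 ± 0.19 and 0.61, edgeR adjusted p = 0.241 and 0.0163). Over the whole list, with or without the motif, 29 of 32 genes tested were called higher. Hspa5, Hsp90b1, Canx, Creld2 and Syvn1 are named for the motif, after their values were seen. The windows of 4 of them are shown 5′ to 3′ on the gene's strand, with the motif or its reverse complement in capitals. They are those of Hspa5, the ER chaperone BiP, at chr2:34771840-34772139 on the plus strand, of Calr, the chaperone calreticulin, at chr8:84846882-84847181 on the minus strand, of Dnajc3 at chr14:118937682-118937981 on the plus strand, and of Creld2, an ER protein with thioredoxin-like function, at chr15:88819396-88819695 on the plus strand.
Hspa5: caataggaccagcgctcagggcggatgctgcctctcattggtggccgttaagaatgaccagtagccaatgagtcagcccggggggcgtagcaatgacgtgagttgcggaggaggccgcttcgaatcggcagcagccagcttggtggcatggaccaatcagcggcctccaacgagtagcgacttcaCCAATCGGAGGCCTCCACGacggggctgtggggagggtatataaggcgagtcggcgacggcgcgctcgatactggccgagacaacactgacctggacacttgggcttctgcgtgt
Calr: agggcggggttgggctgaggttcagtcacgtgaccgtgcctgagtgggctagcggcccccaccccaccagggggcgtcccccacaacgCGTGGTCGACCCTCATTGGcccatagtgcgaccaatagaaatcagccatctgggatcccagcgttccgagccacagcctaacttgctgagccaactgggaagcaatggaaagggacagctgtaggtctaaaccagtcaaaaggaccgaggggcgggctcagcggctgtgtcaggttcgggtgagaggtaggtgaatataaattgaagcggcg
Dnajc3: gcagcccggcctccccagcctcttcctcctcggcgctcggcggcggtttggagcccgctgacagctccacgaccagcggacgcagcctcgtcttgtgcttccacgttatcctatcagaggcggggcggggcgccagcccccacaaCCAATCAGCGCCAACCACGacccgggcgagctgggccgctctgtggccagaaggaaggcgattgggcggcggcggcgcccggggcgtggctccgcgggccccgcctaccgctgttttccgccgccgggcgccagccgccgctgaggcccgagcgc
Creld2: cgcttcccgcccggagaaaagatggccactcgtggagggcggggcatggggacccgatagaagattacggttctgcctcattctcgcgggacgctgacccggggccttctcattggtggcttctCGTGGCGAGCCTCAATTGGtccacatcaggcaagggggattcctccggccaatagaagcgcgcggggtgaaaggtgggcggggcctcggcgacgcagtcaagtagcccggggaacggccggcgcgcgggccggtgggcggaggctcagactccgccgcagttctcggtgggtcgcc
The motif starts between 65 bases (Hspa5) and 162 bases (Calr) before the transcript start, in reverse orientation in Creld2 and Calr. Hspa5 had 873, 1543 and 2226 CPM in progenitors, against 467, 606 and 800.2 CPM in ISCs (1.29 ± 0.13, edgeR adjusted p = 4.36e-09). Calr had 164, 204 and 240.2 CPM in progenitors, against 75.9, 95.3 and 126.2 CPM in ISCs (1.02 ± 0.10, edgeR adjusted p = 3.15e-10). Creld2 had 59.6, 111.4 and 189.7 CPM in progenitors, against 32.4, 45 and 59.3 CPM in ISCs (1.31 ± 0.15, edgeR adjusted p = 1.35e-08). All 4 genes shown were higher in every progenitor library than in any ISC library. A match of letters does not show that a factor bound there.

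Genes of absorptive enterocytes were also higher. Of 28 brush border and digestion genes 20 were higher and 4 lower (median 0.92), the same numbers as within animals. The lower ones, named after their values were seen, were the peptidases Mep1a (-1.10 ± 0.20) and Dpp4 (-0.38 ± 0.12), the motor Myo7b (-0.76 ± 0.10) and the actin regulator Eps8 (-0.57 ± 0.13). Sis, the disaccharidase sucrase-isomaltase, had a median of 227 and a highest value of 359.6 CPM in progenitors, against 0, 4.09 and 12.9 CPM in ISCs (5.62 ± 0.39, edgeR adjusted p = 6.9e-10). Alpi, intestinal alkaline phosphatase, had 96.1, 239 and 402 CPM in progenitors, against 2.22, 9.05 and 20.8 CPM in ISCs (4.58 ± 0.36, edgeR adjusted p = 4.08e-09). The groups did not overlap, and within animals the values were 5.95 and 5.24. Structural genes of the microvillus moved less, with Cdhr5, a link between microvilli, at 1.67 ± 0.10, the motor Myo1a at 1.07 ± 0.10 and the actin bundler Vil1 at 0.69 ± 0.08. Enpep, a peptidase of the brush border, rose by 4.57 ± 0.40. Lactase (Lct) stayed under the filter, at 2.51, 9.76 and 33.3 CPM in progenitors, against 0, 0 and 1.25 CPM in ISCs.

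The promoters of Sis and Alpi are shown since these enzymes define the brush border and separated the groups in every library. In capitals are matches on either strand to the CDX motif TTTATNG, which the intestinal homeobox factors Cdx1 and Cdx2 bind, and in Alpi also the HNF4 motif CAAAGTCCA, bound by the nuclear receptors Hnf4a and Hnf4g. They lie at chr3:72967814-72968113 on the minus strand and at chr1:87101557-87101856 on the minus strand.
Sis: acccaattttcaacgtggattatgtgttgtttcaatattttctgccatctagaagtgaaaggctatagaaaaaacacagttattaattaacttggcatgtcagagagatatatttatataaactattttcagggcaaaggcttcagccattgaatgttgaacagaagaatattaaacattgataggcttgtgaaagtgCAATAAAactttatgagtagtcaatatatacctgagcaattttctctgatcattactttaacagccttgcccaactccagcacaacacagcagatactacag
Alpi: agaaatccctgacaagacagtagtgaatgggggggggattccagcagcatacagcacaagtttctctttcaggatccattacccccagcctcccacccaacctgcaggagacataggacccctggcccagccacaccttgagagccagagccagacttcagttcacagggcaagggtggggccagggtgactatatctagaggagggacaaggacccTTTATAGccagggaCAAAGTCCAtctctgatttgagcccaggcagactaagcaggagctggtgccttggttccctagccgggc
The CDX match starts 52 bases before the start in Sis and 33 in Alpi, and the HNF4 match 19 before it in Alpi. Over the brush border list the CDX motif was in 7 of 26 windows (26.9%), against 12.5% of all genes with a window, and the HNF4 motif in 3 (11.5%), against 0.555%. Of the 7 with the CDX motif, Sis, Alpi and Krt20 were higher, Mep1a and Dpp4 lower, Espn did not pass (0.58 ± 0.53, edgeR adjusted p = 0.407) and Tmprss15 was not tested. None of the motifs searched contains another.

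Transporters of nutrients were higher in 25 of 37 cases and lower in 5 (median 1.08), and in 24 and 4 within animals. Slc6a19, the main transporter of neutral amino acids, had 3.28, 22.7 and 31.7 CPM in progenitors, against 0, 0 and 1.45 CPM in ISCs, from 823 counts in all progenitor and 7 in all ISC libraries. Slc9a3, the sodium-proton exchanger of the brush border, had 5.66, 23.1 and 30.5 CPM in progenitors, against 0, 0 and 1.12 CPM in ISCs, from 834 and 12 counts. Both were all but absent from ISCs, with log2 fold changes of 6.91 ± 0.58 and 6.10 ± 0.48 (edgeR adjusted p = 7.97e-12 and 1.64e-12) whose size is uncertain at so few ISC counts. Npc1l1, the cholesterol importer (2.19 ± 0.17), Slc7a9, a carrier of cystine (2.61 ± 0.15), and Slc26a6, an anion exchanger (3.10 ± 0.23), rose without overlap. The sodium-glucose transporter Slc5a1 did not pass over 21 libraries (0.25 ± 0.17, edgeR adjusted p = 0.252) and did within animals (0.42, edgeR adjusted p = 0.0359). Genes of fat absorption were higher in 16 of 23 cases (median 1.55, none lower), and in 16 of 21 within animals. Without progenitor female 2 the number lower was 1. Mttp, which loads lipid onto apolipoprotein B, had 208, 329 and 385.6 CPM in progenitors, against 44.6, 81.7 and 95.3 CPM in ISCs (2.04 ± 0.12, edgeR adjusted p = 8.12e-16). Rbp2, the retinol carrier of enterocytes, had 14.1, 22.6 and 48.5 CPM in progenitors, against 0, 1.46 and 4.22 CPM in ISCs (4.25 ± 0.36, edgeR adjusted p = 8.07e-12). Fabp1, which carries fatty acids and is also on the list of fatty acid oxidation, had 53.5, 106 and 171 CPM in progenitors, against 0.204, 8.77 and 14.9 CPM in ISCs (3.84 ± 0.43, edgeR adjusted p = 6.23e-07). For these the progenitor and ISC ranges were apart, while those of Apoa1, the main protein of high density lipoprotein, met at 16.7, 60.1 and 104 CPM in progenitors, against 1.49, 5.48 and 19.8 CPM in ISCs (3.25 ± 0.32, edgeR adjusted p = 8.77e-09). The summed level of 10 enterocyte markers was 709, 1220 and 1320 CPM in progenitors, against 173, 230 and 271 CPM in ISCs.

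Detoxification genes were higher in 28 of 37 cases and lower in 2 (median 1.17), and in 27 and 1 of 35 within animals. The number lower was 1 when any of 11 single libraries was left out. Ces1f, a carboxylesterase, had 70.5, 156 and 198 CPM in progenitors, against 0.611, 8.67 and 15.1 CPM in ISCs (4.20 ± 0.28, edgeR adjusted p = 2.61e-11). Cyp4f14 (2.47 ± 0.15), Cyp3a13 (3.18 ± 0.29), Adh6a (2.67 ± 0.21) and Gsta4 (3.92 ± 0.35) also rose without overlap. Gsta1, a glutathione transferase, had 603 counts in all progenitor libraries and 5 in all ISC libraries. The Gsta, Ces1 and Cyp genes have close relatives, so reads of single members are assigned with uncertainty.

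Cell cycle genes were lower by small amounts. Of 44 mitosis genes 33 were lower and none higher (median log2 fold change -0.49, 25 lower within animals), and of 50 S phase genes 22 were lower and none higher (median -0.31, 15 lower and 1 higher within animals). Without ISC female 1, ISC female 2, progenitor male 1 or progenitor female 5 the number of S phase genes higher was 1. Groups were apart for 1 gene of both lists, Cenpn, a centromere protein picked after its values were seen (-0.96 ± 0.18). Ckap2, a protein of spindle microtubules, had 20.4, 37.1 and 51.8 CPM in progenitors, against 48, 76.5 and 114 CPM in ISCs (-1.05 ± 0.16, edgeR adjusted p = 1.15e-06). Mki67, the proliferation marker, had 216, 327 and 446 CPM in progenitors, against 239, 412 and 774 CPM in ISCs and did not pass over 21 libraries (-0.29 ± 0.20, edgeR adjusted p = 0.256), but did within animals (-0.46, edgeR adjusted p = 0.00242). The ranges of both genes overlapped. The summed level of Mki67, Top2a, Mcm5 and Pcna was 961, 1140 and 1380 CPM in progenitors, against 1210, 1410 and 1830 CPM in ISCs. Kif2c, Cenpf and Kif20a, which move or attach chromosomes, were lower by log2 fold changes of -1.04 ± 0.15, -1.01 ± 0.15 and -0.79 ± 0.13. Windows of 29 of 40 mitosis genes (72.5%) held the cell cycle homology region TTTGAA, through which the MuvB complexes act, against 20.2% of all genes, and 8 of 41 S phase genes (19.5%) the E2F motif TTTCCCGC, against 1.24%.

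Of 21 inhibitors of the cell cycle tested 4 were higher and 4 lower, and 5 and 1 of 19 within animals. Among all genes 20.4% were higher and 20.8% lower, and 14.9% and 12.2% within animals. The lower ones were Ccng2, Rbl1, Trp53inp1 and Mxi1, of which only Ccng2 kept its call in each fit that left out 1 library. The number lower was 1 or 2 when any of 10 single libraries was left out. Cdkn2b, which blocks CDK4 and CDK6, had 79.3, 118 and 155 CPM in progenitors, against 0, 1.75 and 10.0 CPM in ISCs (5.18 ± 0.49, edgeR adjusted p = 6.91e-08; within-animal value 5.30). Cdkn1a, the inhibitor p21, had 38.4, 47.4 and 79.5 CPM in progenitors, against 0.204, 6.82 and 13.6 CPM in ISCs (3.02 ± 0.37, edgeR adjusted p = 5.9e-07; within-animal value 3.26). The retinoblastoma gene Rb1 had 25.1, 35.9 and 41.6 CPM in progenitors, against 3.06, 14.4 and 19.4 CPM in ISCs (1.49 ± 0.22, edgeR adjusted p = 1.53e-06). For all 3 no ISC library reached a progenitor library. Cdkn1b, the inhibitor p27, was picked after its value was seen and did not pass (-0.64 ± 0.39, edgeR adjusted p = 0.192). Myc, a driver of growth and a Wnt target, was lower at 29.9, 45.2 and 99.8 CPM in progenitors, against 118, 153 and 291 CPM in ISCs (-1.64 ± 0.21, edgeR adjusted p = 8.43e-07). Ribosome biogenesis genes, which Myc is known to raise, were lower in 20 of 34 cases and higher in 1 (Bop1, named after its value was seen, not called when any of 10 single libraries was left out), at a median of -0.43, and in 16 and 1 within animals, among them the nucleolar proteins Ncl (-0.75 ± 0.09) and Npm1 (-0.42 ± 0.10). The share of counts in ribosomal protein genes was 9.29 to 11.8% in progenitors and 10.3 to 14.4% in ISCs. Single ribosomal protein genes were among those that differed between ISC libraries without and with the number, and the part of this in their differences was not tested.

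**Figure D4:**
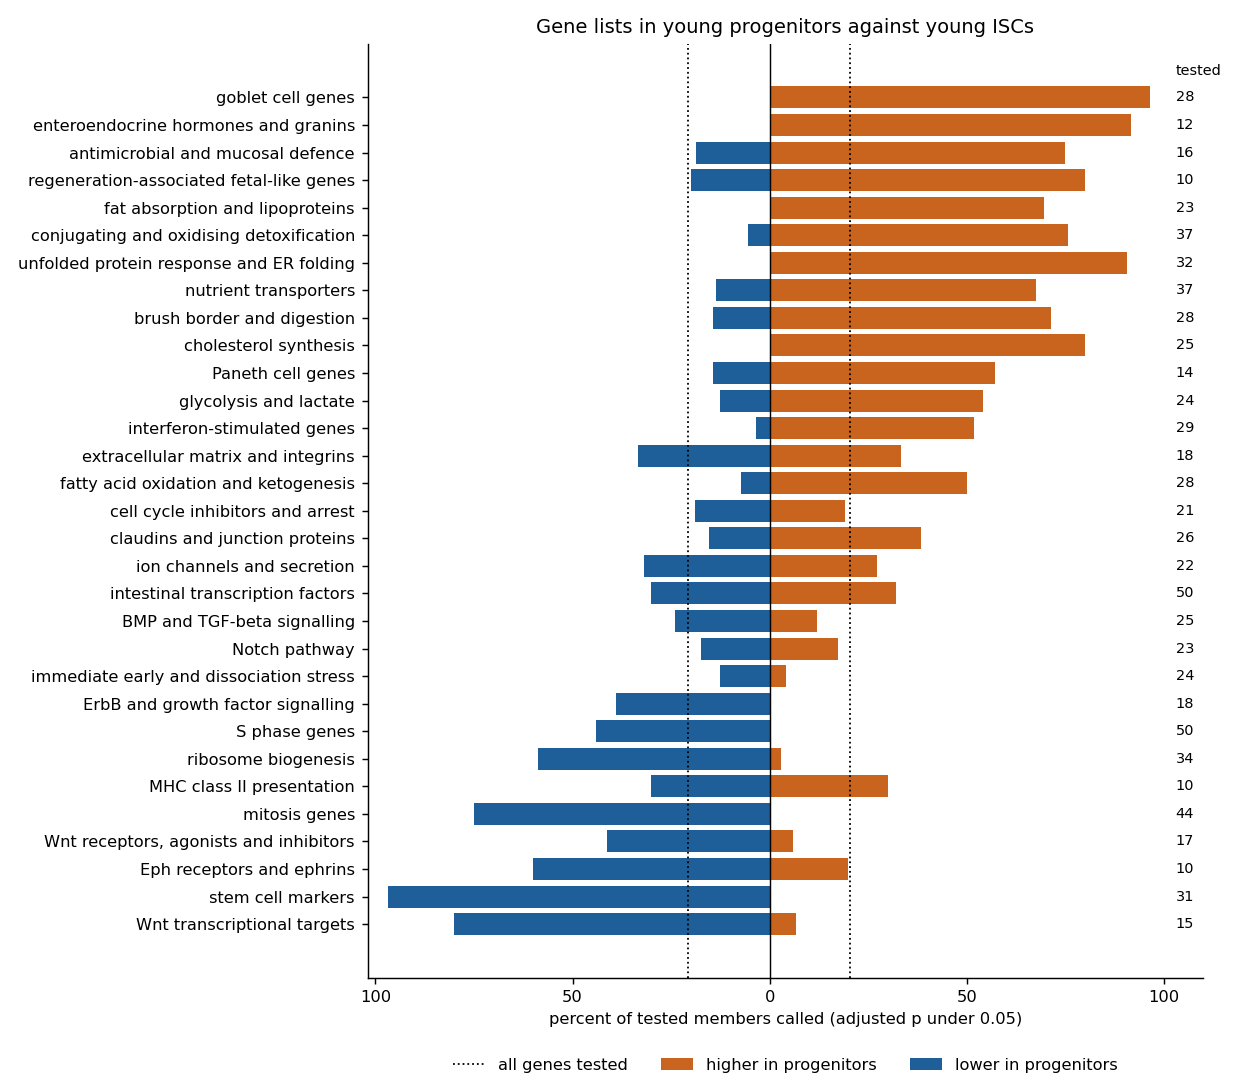
Percent of the tested members of each gene list that were called higher (right) or lower (left) in progenitors, for lists with at least 10 members tested, ordered by median log2 fold change. Dotted lines mark the 20.4% higher and 20.8% lower of all genes tested, and the number at the right is the members tested. Goblet, hormone, ER folding and cholesterol lists lie to the right, stem cell markers, Wnt targets and mitosis genes to the left.

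Metabolic genes differed by pathway. Cholesterol synthesis genes were higher in 20 of 25 cases and lower in none (median 0.89), and in 17 within animals. Cyp51, a demethylase of lanosterol, had 70.0, 119 and 170.1 CPM in progenitors, against 33.4, 41.5 and 64.1 CPM in ISCs (1.34 ± 0.13, edgeR adjusted p = 3.88e-10). Lss, which closes the sterol rings, had 45.2, 65.1 and 82.4 CPM in progenitors, against 13.2, 21.3 and 37.4 CPM in ISCs (1.40 ± 0.17, edgeR adjusted p = 2.62e-08). The groups were apart for both, and the rate-limiting steps before them, Hmgcs1 (1.17 ± 0.16) and Sqle (1.11 ± 0.16), rose with some overlap. Of 28 genes of fatty acid oxidation and ketogenesis 14 were higher and 2 lower (median 0.25), and 13 and 2 within animals, with the carnitine transferases Cpt1a (0.76 ± 0.10) and Cpt2 (0.87 ± 0.12) higher. Of 24 glycolysis and lactate genes 13 were higher and 3 lower (median 0.47), and 11 and none of 22 within animals. The number lower was 1 without ISC male 2 or female 1, or without progenitor male 5, female 3 or female 5. Gapdh and Eno1, which differed between ISC libraries without and with the number, belong to this list, and their part in it was not tested. Pfkp, a phosphofructokinase, had 179, 220.4 and 277 CPM in progenitors, against 18.1, 32.3 and 62.3 CPM in ISCs (2.61 ± 0.15, edgeR adjusted p = 4.77e-15), and Ldha, lactate dehydrogenase, 1795, 1999 and 2317 CPM in progenitors, against 667, 813 and 985 CPM in ISCs (1.32 ± 0.08, edgeR adjusted p = 5.23e-15). Both separated the groups, and within animals their values were 2.31 and 1.32.

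Ion transport genes moved in both directions. Of 22 channel and secretion genes 6 were higher and 7 lower, where 20.4% and 20.8% of all genes were, and 5 and 7 within animals. Slc12a2, which loads chloride into secreting cells, had 115, 181 and 235 CPM in progenitors, against 486, 639 and 788 CPM in ISCs (-1.81 ± 0.12, edgeR adjusted p = 1.29e-14). The potassium channel Kcnq1 had 228, 271 and 356 CPM in progenitors, against 490.3, 611 and 715 CPM in ISCs (-1.15 ± 0.09, edgeR adjusted p = 1.41e-12). Car4, a carbonic anhydrase of the absorptive surface, had 178, 281 and 373 CPM in progenitors, against 4.08, 28.7 and 48 CPM in ISCs (3.37 ± 0.25, edgeR adjusted p = 5.03e-10). The first 2 were low and Car4 was high in every progenitor library, and the chloride exchanger Slc26a3 rose with Car4 (1.84 ± 0.19). Among 26 claudins and junction proteins 10 were higher and 4 lower (2 lower without ISC male 3 or progenitor male 5), and 7 and 1 of 25 within animals, with the pore-forming Cldn2 lower (-0.74 ± 0.08) and Cldn3, Cldn7 and Cldn15 higher (0.56 ± 0.09, 0.43 ± 0.08 and 0.51 ± 0.09). The call of E-cadherin (Cdh1, 0.28 ± 0.09) ended within animals (edgeR adjusted p = 0.515). Of 18 matrix and integrin genes 6 were higher and 6 lower, and 4 and 5 within animals, the laminins Lama5 and Lamb3 falling (-3.36 ± 0.50 and -2.67 ± 0.24) and the integrins Itga3 and Itgb1 rising (0.67 ± 0.11 and 0.60 ± 0.13). Fstl1, a secreted BMP modulator, was among the genes that fell furthest (-4.63 ± 0.45, -4.06 within animals).

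Of 10 MHC class II genes 3 were higher and 3 lower, and 2 and 5 within animals. Among all genes 20.4% were higher and 20.8% lower, and 14.9% and 12.2% within animals. H2-Eb1 had 77.7, 203.1 and 439 CPM in progenitors, against 171, 420.4 and 571 CPM in ISCs (-0.96 ± 0.24, edgeR adjusted p = 0.00329; within-animal value -1.18). The invariant chain Cd74, picked after its value was seen, did not pass over 21 libraries (-0.40 ± 0.23, edgeR adjusted p = 0.166) and was lower within animals (-0.60, edgeR adjusted p = 0.000271). Interferon-stimulated genes were higher in 15 of 29 cases (median 0.46, 1 lower), none without overlap, and in 7 of 27 within animals, where higher genes are 14.9% of all. Irf7 (1.42 ± 0.29) and the nucleic acid sensor Zbp1 (3.15 ± 0.52) rose, Zbp1 at 5.34, 12 and 24.2 CPM in progenitors, against 0, 0.584 and 6.99 CPM in ISCs. The call of B2m ended within animals (0.07, edgeR adjusted p = 0.529). Of 24 immediate early and stress genes 1 was higher and 3 lower (4 higher without ISC male 1 and 2 without any of 6 other libraries, 5 lower without progenitor female 4), and none and 4 of 23 within animals, with Jun, a part of the AP-1 factor, at 19.7, 32.4 and 43.8 CPM in progenitors, against a lowest value of 51.6 and a median of 121.4 CPM in ISCs (-2.28 ± 0.28, edgeR adjusted p = 1.11e-06). Of 10 regeneration-associated genes 8 were higher and 2 lower (1 lower without ISC male 1, male 2, female 1 or female 2), and 6 of 6 were higher within animals. Anxa2, an annexin that binds membranes, had 672, 734 and 826 CPM in progenitors, against 84.7, 119 and 147 CPM in ISCs (2.64 ± 0.10, edgeR adjusted p = 7.96e-21), an adjusted p below that of Olfm4. Clu, a chaperone that marks revival stem cells after injury, was lower at 0, 0.102 and 1.46 CPM in progenitors, against 2.81, 6.52 and 16.8 CPM in ISCs (-4.21 ± 0.58, edgeR adjusted p = 2.87e-07) and was not tested within animals.

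Beyond the lists, the genes that rose furthest included Afp, alpha-fetoprotein, with 5.03, 26.3 and 82.5 CPM in progenitors, against 0, 0 and 1.17 CPM in ISCs from 1359 counts in progenitor and 5 in ISC libraries, Scin, an actin-severing protein (5.68 ± 0.59, 4.04 within animals), and Fam3b (5.54 ± 0.54). Those that fell furthest included the glutamate transporter Slc1a2 (-4.68 ± 0.56), endothelin 1 (Edn1, -4.20 ± 0.53) and Esam (-3.67 ± 0.47), an adhesion molecule known from endothelium, the markers of which are given below. Higher genes with the greatest mean level included Lypd8, which keeps bacteria from the epithelium (1.53 ± 0.08), Pigr, the immunoglobulin A transporter (0.51 ± 0.09), Lgals4 (1.09 ± 0.09) and Dmbt1 (1.90 ± 0.10). Besides Olfm4, the lower genes with the greatest mean level included the translation genes Eef1a1, Rps2, Rack1 and Rpl4, with log2 fold changes of -0.64 ± 0.10 (-0.33 within animals) for Eef1a1 and -0.38 ± 0.08 for Rpl4. The call of Rps2 ended within animals (edgeR adjusted p = 0.28).

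Transcripts of cells outside the epithelium were low. Over 11 immune markers the summed level was 0, 0.678 and 2.66 CPM in progenitors, against 0, 2.34 and 8.07 CPM in ISCs (difference -1.92 CPM, two-sided permutation test p = 0.0743). Of these 3 were at 0 in all progenitor libraries and 5 in all ISC libraries, among them in ISCs Ptprc, the pan-leukocyte marker CD45. Over all 33 immune genes listed the sum was 13.4, 21.8 and 23.3 CPM in progenitors, against 14.4, 16.8 and 37.9 CPM in ISCs, the highest in ISC male 1, and 15 genes were at 0 throughout each cell type. The 3 that passed the filter were Cd79b, a part of the B cell receptor, and the myeloid receptors Csf1r and Itgam. Cd79b had 2.3, 7.48 and 15.4 CPM in progenitors, against 0.372, 4.49 and 14.7 CPM in ISCs, and Csf1r and Itgam reached 6.29 and 8.46 CPM in progenitors, against 7.63 and 10.4 CPM in ISCs. None of these was called (lowest edgeR adjusted p = 0.115). Lck, a kinase known from T cells and among the genes that fell furthest, had 0, 0.31 and 3.55 CPM in progenitors, against 0.635, 7.03 and 24.7 CPM in ISCs (-3.56 ± 0.67, edgeR adjusted p = 5.06e-05). Its ranges overlapped, ISC male 1 was again the highest, and it could be tested in 12 of the 21 fits that left out 1 library and not within animals. Over 7 stromal and endothelial markers it was 5.16, 16.7 and 26.9 CPM in progenitors, against 0, 0.343 and 5.61 CPM in ISCs (difference 14.9 CPM, two-sided permutation test p = 4e-05). Col1a2, Dcn and Cdh5 were at 0 in all 21 libraries, and nearly the whole of that sum was Vim, the intermediate filament vimentin, at 5.12, 16.5 and 26 CPM in progenitors, against 0, 0 and 5.4 CPM in ISCs (4.41 ± 0.68, edgeR adjusted p = 7.47e-06). Over all 23 stromal and endothelial genes listed the sum was 12.2, 29.9 and 42.7 CPM in progenitors, against 5.21, 11.8 and 23.9 CPM in ISCs, with 12 genes at 0 in all progenitor libraries and 11 in all ISC libraries. Lyve1, a receptor of lymphatic endothelium, and Tagln, of smooth muscle, were the other two tested and did not pass (0.09 ± 0.52 and 1.21 ± 0.50, edgeR adjusted p = 0.909 and 0.0508), and the number higher was 2 when any of 6 single ISC libraries was left out. The part of such cells in the other results was not tested.

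**Figure D5:**
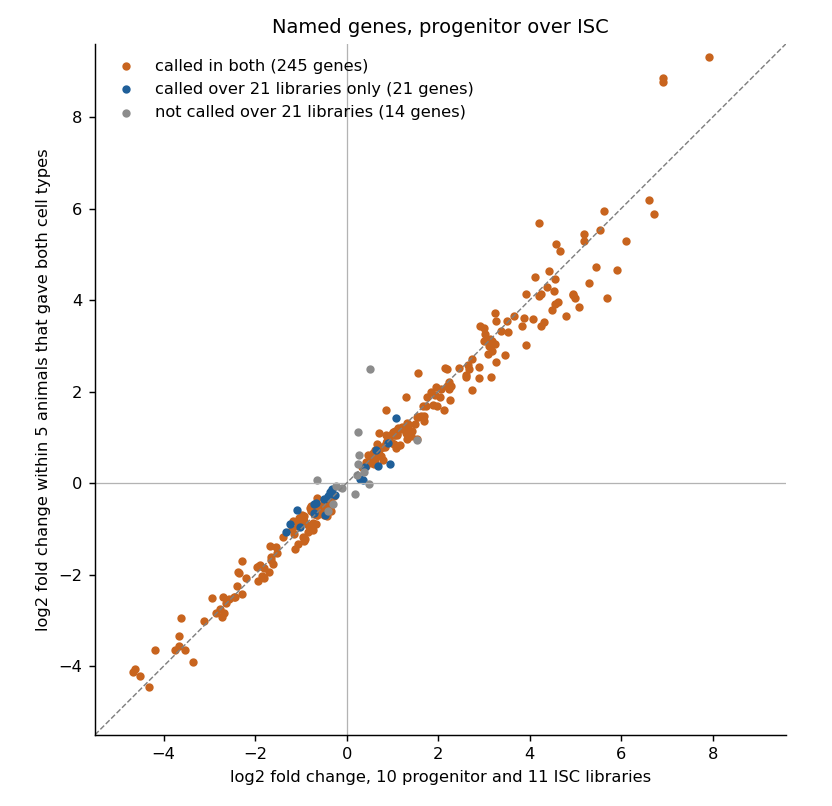
Log2 fold change, progenitor over ISC, of 280 named genes tested in both fits, over all 21 libraries on the horizontal axis and within the 5 animals that gave both cell types on the vertical axis, with the line of equality dashed. Of these, 245 were called in both, 21 over 21 libraries only and 14 were not called over 21 libraries. Points lie along the line, and the values of the goblet genes Muc2 and Zg16 are lower within animals. Libraries of the 5 animals are among the 21, so both axes share data.

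Did the difference depend on sex or age? No gene was called for a difference between males and females in the progenitor minus ISC contrast (0 of 10924 in edgeR, 490 at an unadjusted p under 0.05, 1 called by DESeq2). Without ISC male 5 or without progenitor female 4 edgeR called 1 gene. Simulated sex differences of 2 log2 units were called in 73.4% of cases. For age, 10 progenitor and 12 ISC libraries of males and females labelled as aged were added to the young ones. Between young and aged mice this contrast differed for 2 of 11894 genes (0.0168%), with 473 at an unadjusted p under 0.05. Between progenitors and ISCs of aged mice 4733 genes (39.8%) were called. The 2 genes called for age are 5330417C22Rik and Ly6e. When single young libraries were left out, the count was 1 without young ISC male 1 or without young progenitor female 1. In young mice Ly6e, an interferon-inducible surface protein, was higher at 451, 510.3 and 658 CPM in progenitors, against 259, 349.8 and 469 CPM in ISCs (0.58 ± 0.09, edgeR adjusted p = 2.45e-06), and 5330417C22Rik, whose function is not described here, had 58.5 to 151 CPM in progenitors, against 10.8 to 38.9 CPM in ISCs (2.27 ± 0.18, edgeR adjusted p = 3.02e-12).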

How the data were processed

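Sorted crypt cells were measured by SC3-seq, a bulk RNA-seq of 3′ transcript ends. The authors deposited 1 table of raw counts per gene with CPM, counts scaled to a common library total, beside them, 112 columns of each and 32285 genes, of which 10560 had no count in any column. Deposited CPM differed from the counts scaled to their column totals by at most 4.95e-10. The submitters' processing notes name cutadapt 3.0, STAR 2.7.9a, HTSeq 0.13.5, DESeq2 1.30.1 and the build mm10, without order or settings. Neither the gene annotation's release nor whether strand was used in counting was found in these notes or the labels, so reads of overlapping or antisense genes cannot be told apart. Reads of close paralogs may be split.

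The 10 young progenitor and 11 young ISC libraries were fitted together with edgeR 4.0.16 (R 4.3.3, limma 3.58.1): filterByExpr (minimum count 10), TMM scaling, a robust quasi-likelihood fit with sex as a term, and Benjamini-Hochberg adjustment over all genes tested. Values per library are TMM-normalised CPM, and values given as a pair with ± are log2 fold changes, progenitor over ISC, with SE. Where 3 values of a group stand together they are its lowest, median and highest library. Libraries are replicates by their labels as separate animals within a cell type, so p-values measure the spread between animals. No 2 libraries agreed within sampling noise (chi-square per degree of freedom at least 6.79). The 3′ tags are not scaled by length, so levels are compared between libraries and not between genes.

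The 5 animals that gave both cell types, known from animal numbers in the labels, were also fitted with the animal as a block. Over 5000 genes the deviations of their 2 libraries from the group means correlated at 0.158 to 0.247 in the 5 pairs, against a median of 0.015 in 95 other pairs. Named genes are Lgr5, Olfm4 and Muc2, the 12 largest rises and 12 largest falls among called genes of at least 5 CPM in the higher cell type, up to 8 called members of each gene list with the smallest p, cell type markers, genes called for an interaction, and the 6 called genes of each direction with the highest mean. Some genes that these rules name are not reported here. The comparison, the gene lists and these rules were chosen with earlier results of these data known. Checked on simulated data with 200 genes changed, the main test called 74% at 1 log2 unit and 95% at 2, with 5.06% false among its calls. Alternatives were DESeq2 1.42.0, limma-voom, other scaling, filters, subsets and blocks. Promoter sequences are from RefSeq, and gene coordinates from GENCODE M21, both on GRCm38.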

Additional observations from a re-analysis of the deposited data

Results flagged for a closer look

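Among 84 group values of named results, 3 single libraries stood apart from the rest of their group by Dixon's test, a test that chance alone would trip in about 1 of 20 groups. Progenitor female 4 had 55.8 CPM of Gip, the next progenitor library having 29.2 CPM, and 439 CPM of H2-Eb1, the next having 243 CPM. Progenitor male 3 had 53.6 CPM of Maf, with the next at 31.4 CPM. Without progenitor female 4, Gip had too few counts to be tested, so its call could not be checked there. The calls of H2-Eb1 and Maf were kept in each of the 21 fits that left out 1 library.

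The progenitor minus ISC difference differed between aged and young mice for 2 genes in edgeR's interaction test over 11894 genes. For 5330417C22Rik the log2 difference was smaller in aged mice (aged minus young -1.3908, adjusted p = 0.00214), and for Ly6e likewise (-0.6424, adjusted p = 0.0203). Neither the cause of these differences nor that of the libraries above was tested.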

How the results depend on the processing

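Of 276 named genes called, 259 kept their call in each of the 21 fits that left out 1 library, 12 lost it in at least 1, and Ccn1, Gcg, Gip, Lck and Neurog3 had too few counts for some of these fits. Under all 39 alternatives 190 were tested and unchanged, and a further 21 were unchanged wherever tested. The numbers of genes higher and lower (2227 and 2272) were 1565 and 1283 with a replicate block for the animal, in 5 animals, 2176 and 2021 with the replicate number of the titles as a block (same-numbered libraries correlated at a median of -0.0792 over 10 pairs), 1315 and 1189 in males, 1597 and 1345 in females, and 1542 and 1314 with Paneth libraries in the fit. Fewer libraries enter the first and the sex fits, and for Paneth libraries the cause was not tested. Leaving out 1 library gave 2079 to 2238 higher and 2133 to 2301 lower. The blocked fit tested 280 of 294 named genes, of which 21 lost a call and 5 gained one, and 10 called genes were not tested in it. Without scaling of library totals 37.6% of calls were higher, against 49.5%, with 1740 higher and 2886 lower. With only ISC libraries that carry the number, an alternative chosen after seeing the data, 2348 genes were higher and 2148 lower, and with only those without it 1867 and 1690. DESeq2 called 2308 and 2433. For the difference between sexes the count was 0 in edgeR, 1 in DESeq2 and 0 to 1 with 1 library left out. For age it was 2, and 1 to 2 with 1 young library left out, and fits without an aged library were not made. No named result changed sign where the main fit or the alternative called it. Signs of uncalled genes could change, as that of Lyve1 did (log2 -0.22 to 0.28 over fits without 1 library). Counts of lists with few called members moved most, and genes under about 10 counts in most libraries could not be tested, which leaves most tuft, immune and stromal markers without a test.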
